A study of Homo sapiens with 6 samples.

Results

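The genes described here are 10 ETS transcription factors outside the PEA3 group, the small ETS branch to which ETV1 belongs. They were taken by symbol from a deposited table of 17468 genes, and all 10 were found. They are ETS1, ETS2, ELK1, ELK3, ELK4, ELF1, ELF2, GABPA, ETV3 and ETV6. Expression is in FPKM, the fragments of a gene per unit of transcript length and library size. All 10 averaged 1 FPKM or more and so were among the 11129 genes tested.

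ETS factors share a DNA-binding domain that reads a short GGA core, and many are phosphorylated by MAP kinases such as ERK, the pathway driven by mutant BRAF in much of melanoma. ELK1, ELK3 and ELK4 are the ternary complex factors, which bind serum response elements together with SRF. ETS1 and ETS2 are activators named after the founding viral oncogene, ELF1 and ELF2 form a subgroup, and GABPA is the DNA-binding subunit of the GABP complex, known for promoters of mitochondrial genes. ETV3 and ETV6 act mainly as repressors.

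RNA was sequenced from Colo800 and A375, both human melanoma cell lines, 4 days after infection with a virus carrying a hairpin RNA. There were 6 libraries, 1 per line and hairpin: ETV1-sh2 and ETV1-sh1, both directed against ETV1, and a scrambled hairpin. The series text speaks of duplicate infections, and the sources used here do not say whether a column pools them. The sample labels add a drug to each hairpin that the series text does not mention: 5 nM trametinib (a MEK inhibitor) for ETV1-sh2, DMSO (solvent) for ETV1-sh1 and 1 uM of the BRAF inhibitor spelled vemurafinib for scrambled. They also describe siRNA for 48 hours and drug for 8 hours, so in these libraries a hairpin effect and an effect of the labelled drug cannot be told apart.

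ETV1 itself stood at 9.80 FPKM with ETV1-sh2, 54.6 with ETV1-sh1 and 180.3 with scrambled in Colo800, and at 3.46, 34.6 and 82.8 FPKM with the same hairpins in A375. Between 10418 and 11013 genes per library had at least 1 FPKM. FPKM keeps no absolute depth, but the steps between low values put the libraries at 0.768 to 2.10 times the depth of A375 scrambled, the deepest being A375 ETV1-sh2. Of the 7 melanoma markers in the table, SOX10 led in every library (353 to 712 FPKM), while in A375 TYR and DCT were at or below 0.0758 FPKM and MLANA at or below 0.481. The 6 leukocyte markers summed to 77.9 to 327 FPKM per library, of which CD68 made 76.6 to 306 FPKM. LYZ was at 12.2 to 21.0 FPKM in A375 and 0.167 to 1.02 in Colo800, and PTPRC was at most 0.121 FPKM in any library. Summed keratinocyte markers came to 5.43 to 21.6 FPKM and endothelial markers to 1.33 to 10.4 FPKM per library. In bulk RNA, fewer cells of a type and less RNA per cell cannot be told apart.

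The largest fitted change with a hairpin among the 10 genes was in the ternary complex factor ELK3, which recruits corepressors when it is not phosphorylated. ELK3 stood at 12.7 FPKM with ETV1-sh2, 33.4 with ETV1-sh1 and 51.0 with scrambled in Colo800. In A375 it was at 10.96 FPKM with ETV1-sh2, 54.6 with ETV1-sh1 and 57.2 with scrambled. Both ETV1-sh2 libraries lay below all 4 others, at 24.9% of scrambled in Colo800 and 19.2% in A375. ETV6, a repressor that in leukaemias is broken by chromosome translocations, was at 10.3, 13.7 and 27.0 FPKM in Colo800 and at 4.55, 13.0 and 15.9 FPKM in A375 with ETV1-sh2, ETV1-sh1 and scrambled. In each line ETV1-sh2 was lowest and scrambled highest. ETV3, a repressor related to the ETS factor ERF, was at 15.3, 32.1 and 28.1 FPKM in Colo800 and at 9.09, 22.4 and 17.6 FPKM in A375 in the same hairpin order. Here ETV1-sh1 was the highest library of each line and ETV1-sh2 the lowest.

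**Figure D1:**
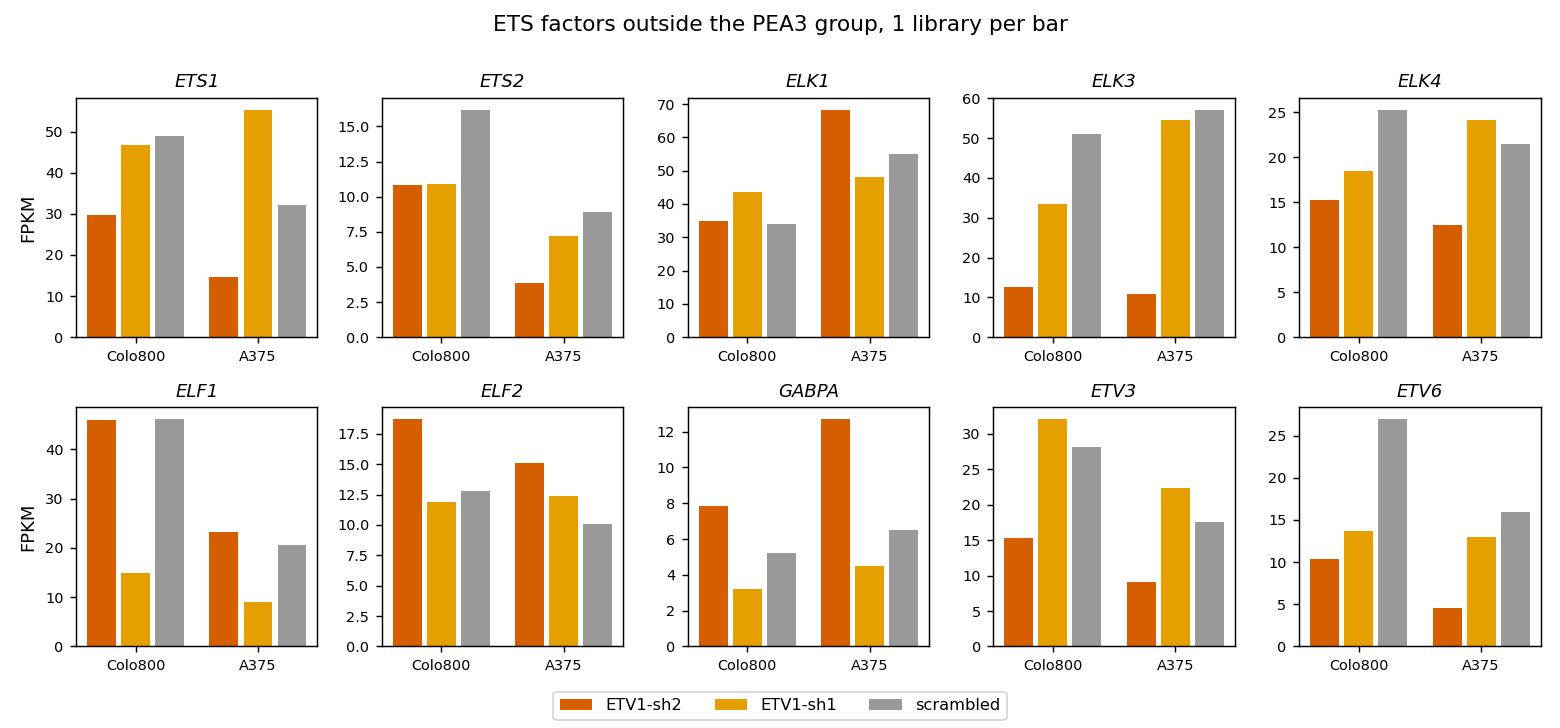
FPKM of the 10 ETS genes (y axis, linear, from 0), 1 bar per library, by line on the x axis and coloured by hairpin. ELK3, ETV3 and ETV6 are lowest with ETV1-sh2 in both lines, and ELF1 is lowest with ETV1-sh1 in both lines.

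Each hairpin was compared with scrambled in limma fits on log2(FPKM + 1) over all 11129 genes, with the cell line and 3 hairpin levels as terms and a Benjamini-Hochberg adjusted p under 0.05 as the threshold. The lines serve as the replication, and 2 residual degrees of freedom are left. The comparisons of both ETV1 hairpins share the scrambled libraries. After ETV1-sh2, 3 of the 10 ETS genes fell and none rose, beside 16.7% of all tested genes called (9% lower and 7.73% higher). ELK3 fell by 2.10 on the log2 scale (SE 0.238, adjusted p = 0.00906), ETV6 fell by 1.46 (SE 0.260, adjusted p = 0.0200) and ETV3 fell by 0.86 (SE 0.169, adjusted p = 0.0252), each lower in both lines. The median log2 change of the 10 genes was -0.75, beside 0.05 over all genes tested. With no filter on low values, where all 17468 genes were tested, no gene was called and the 3 adjusted p-values were 0.104 to 0.143. Left-out libraries also ended calls. Without A375 scrambled these were ELK3 (log2 change -2.15), ETV6 (-1.55) and ETV3 (-0.88), and without Colo800 scrambled ETV6 (-1.37) and ETV3 (-0.83). Such fits leave 1 scrambled library, and most calls over all tested genes were lost there as well. ETV3 also missed the threshold without A375 ETV1-sh1, A375 ETV1-sh2 or Colo800 ETV1-sh1, at log2 changes of -0.86, -0.80 and -0.86. Fewer of all tested genes were called in those fits too. Without Colo800 ETV1-sh2, ETS1 (-1.29) and ETS2 (-1.10) passed the threshold in addition.

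Some other measurements also differed between the hairpin libraries. The summed FPKM of the 6 fibroblast markers was 29.7 with ETV1-sh2, 10.7 with ETV1-sh1 and 9.78 with scrambled in Colo800, and 34.7, 15.6 and 13.1 in A375. COL3A1 was at most 0.106 FPKM in any library and listed at 0 in A375 scrambled. COL1A2 was at 1.32 FPKM with ETV1-sh2 against 1.78 with scrambled in Colo800, and at most 0.0726 in A375. DCN was at 0.441 against 0.113 FPKM in Colo800 and 4.08 against 0.423 in A375. All 3 fibroblast markers tested, COL1A1, PDGFRB and LUM, rose after ETV1-sh2, beside 7.73% of all tested genes called higher. CD68, listed among the leukocyte markers, was at 306 FPKM in A375 ETV1-sh2 against 87.5 in A375 scrambled, and at 76.6 against 104 in Colo800. The summed melanoma markers came to 846 FPKM with ETV1-sh2, 896 with ETV1-sh1 and 1297 with scrambled in Colo800, and to 473, 402 and 688 FPKM in A375. Of the 6 melanoma markers tested S100B alone was called, lower with ETV1-sh2 (log2 change -1.06, adjusted p = 0.0194) and with ETV1-sh1 (-1.70, adjusted p = 0.0197). Of all tested genes 9% were called lower after ETV1-sh2 and 1.51% after ETV1-sh1. The part of these markers in the ETS changes, and that of depth, was not tested.

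The remaining ternary complex factors, ETS1 and ETS2 did not pass the threshold after ETV1-sh2. ELK4, also known as SAP1, was at 15.2, 18.5 and 25.3 FPKM in Colo800 and at 12.4, 24.1 and 21.4 FPKM in A375 with ETV1-sh2, ETV1-sh1 and scrambled. Its fitted log2 change with ETV1-sh2 was -0.72 (95% interval -1.25 to -0.19, adjusted p = 0.0704). ELK1, the ternary complex factor activated by ERK at the FOS promoter, was at 34.7, 43.5 and 34.1 FPKM in Colo800 and at 68.3, 48.1 and 54.9 FPKM in A375. No hairpin sat at the same end of the order in both lines for ELK1, and its log2 change with ETV1-sh2 was 0.17 (95% interval -0.38 to 0.71). ETS2 was at 10.83, 10.88 and 16.2 FPKM in Colo800 and at 3.84, 7.17 and 8.94 FPKM in A375, with scrambled highest in both lines. Its log2 change with ETV1-sh2 was -0.79 (SE 0.235, adjusted p = 0.0669). These intervals are for 1 gene each and are not adjusted for the number of genes.

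ETS1, a regulator of proteases and vessel growth genes, was at 29.8 FPKM with ETV1-sh2, 46.7 with ETV1-sh1 and 49.0 with scrambled in Colo800. In A375 it was at 14.7 FPKM with ETV1-sh2, 55.4 with ETV1-sh1 and 32.1 with scrambled. ETV1-sh2 was thus the lowest library of each line, while ETV1-sh1 was above scrambled in A375 and below it in Colo800. The log2 change of ETS1 with ETV1-sh2 was -0.89 (SE 0.292, adjusted p = 0.0848) and with ETV1-sh1 0.35 (SE 0.292, adjusted p = 0.560).

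ELF1 was lowest with the other hairpin. This factor, known in lymphoid and endothelial cells as an activator, was at 46.1 FPKM with ETV1-sh2, 14.8 with ETV1-sh1 and 46.2 with scrambled in Colo800. In A375 it was at 23.3 FPKM with ETV1-sh2, 9.10 with ETV1-sh1 and 20.6 with scrambled. Within each line the ETV1-sh2 and scrambled libraries lay close together and ETV1-sh1 far below, at 32.1% of scrambled in Colo800 and 44.2% in A375. After ETV1-sh1, ELF1 fell by 1.34 on the log2 scale (SE 0.189, adjusted p = 0.0337). It was the 1 member of 10 called, beside 2.28% of all tested genes (1.51% lower and 0.773% higher). With ETV1-sh2 its change was 0.08 (95% interval -0.37 to 0.54, adjusted p = 0.778). The call after ETV1-sh1 ended without A375 scrambled, A375 ETV1-sh1, Colo800 scrambled or Colo800 ETV1-sh1, fits that leave 1 library of a hairpin. Nearly all calls over all tested genes were lost there as well, so the loss is not particular to ELF1. Its change kept between -1.53 and -1.14 over the left-out libraries. With no filter on low values the call ended too (adjusted p = 0.245), with no gene called among 17468.

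ELF2, the close relative of ELF1, had another order of hairpins. It was at 18.7 FPKM with ETV1-sh2, 11.9 with ETV1-sh1 and 12.8 with scrambled in Colo800, and at 15.1, 12.3 and 10.04 FPKM in A375. ETV1-sh2 was highest in both lines, with a log2 change of 0.53 (SE 0.190, adjusted p = 0.103). GABPA, the ETS subunit of GABP, was at 7.87, 3.19 and 5.23 FPKM in Colo800 and at 12.7, 4.47 and 6.50 FPKM in A375 with ETV1-sh2, ETV1-sh1 and scrambled. In both lines its order was ETV1-sh2 highest, scrambled between and ETV1-sh1 lowest. Against scrambled its log2 change was 0.69 with ETV1-sh2 (adjusted p = 0.0641) and -0.51 with ETV1-sh1 (adjusted p = 0.242), so neither passed. After ETV1-sh1 ETV6 was at -0.60 (adjusted p = 0.283), and the other members lay between -0.41 for ETS2 and 0.35 for ETS1. The median of the 10 genes after ETV1-sh1 was -0.23, beside 0.00 over all genes tested.

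**Figure D2:**
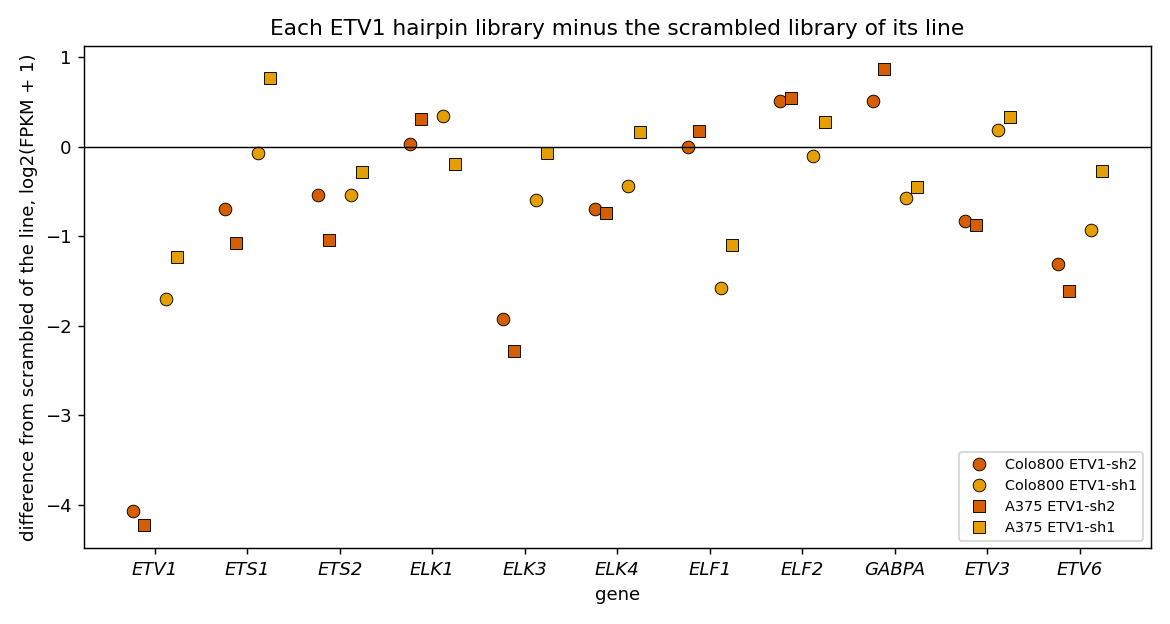
Difference of each ETV1 hairpin library from the scrambled library of its line on the log2(FPKM + 1) scale (y axis) for ETV1 and the 10 ETS genes (x axis), with circles for Colo800 and squares for A375. Both ELK3 values with ETV1-sh2 lie between -2.5 and -1.5, whereas both ELF1 values below -1 belong to ETV1-sh1.

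The comparison of ETV1-sh2 with ETV1-sh1 sets the hairpin that left less ETV1 against the one that left more. The hairpins also differ in their labelled drug, trametinib against DMSO, so it is not a comparison of ETV1 level alone. Of the 10 genes 3 were lower and 2 were higher with ETV1-sh2, beside 13.7% of all tested genes called (6.91% lower and 6.82% higher). ELK3 was lower by a log2 change of -1.77 (SE 0.238, adjusted p = 0.0104), ETS1 by -1.24 (SE 0.292, adjusted p = 0.0422) and ETV3 by -1.12 (SE 0.169, adjusted p = 0.0137). ELF1 was higher by 1.42 (SE 0.189, adjusted p = 0.00992) and GABPA by 1.205 (SE 0.202, adjusted p = 0.0171). All 5 differences had the same direction in both lines. The change of ETV6 between the hairpins was -0.86 (adjusted p = 0.0751), and that of ELK1 was 0.09 (95% interval -0.45 to 0.64).

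All 5 calls ended without A375 ETV1-sh1 or without Colo800 ETV1-sh1, fits that leave 1 library of that hairpin. Calls over all tested genes were lost there as well, so the loss is not particular to these 5 genes. Without A375 ETV1-sh1 the log2 changes were -1.42 for ELK3, -0.73 for ETS1, -1.03 for ETV3, 1.62 for ELF1 and 1.17 for GABPA. Without Colo800 ETV1-sh1 they were -2.13, -1.75, -1.20, 1.22 and 1.24 for the same genes. Without A375 ETV1-sh2 ETS1 (log2 change -0.84) and GABPA (1.05) missed the threshold, and without Colo800 ETV1-sh2 ETV6 passed it (-1.17). The unfiltered fit over 17468 genes made no call at all, and the adjusted p of the 5 genes was 0.108 to 0.221. ETS1 had an adjusted p of 0.0536 with no variance trend.

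**Figure D3:**
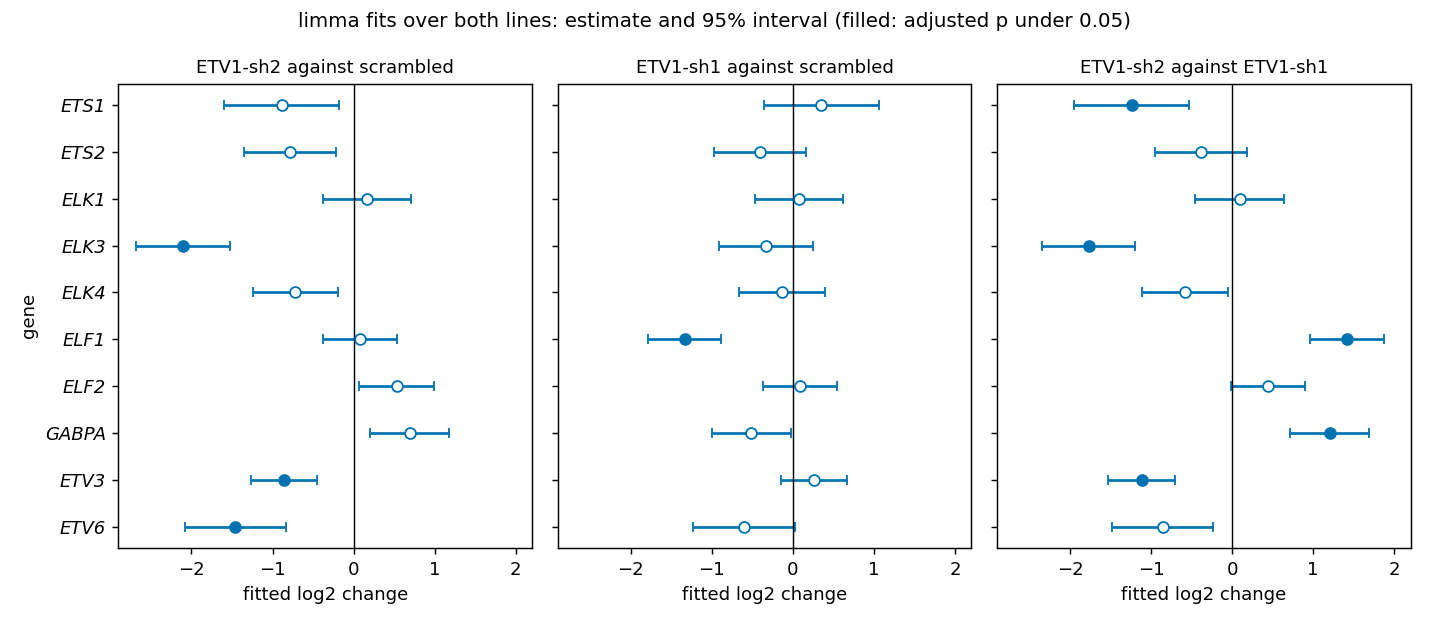
Fitted log2 change (x axis) of the 10 ETS genes (y axis) in limma for ETV1-sh2 against scrambled, ETV1-sh1 against scrambled and ETV1-sh2 against ETV1-sh1, with 95% intervals and filled points for an adjusted p under 0.05. ELK3, ETV3 and ETV6 are filled for ETV1-sh2, ELF1 alone for ETV1-sh1, and 5 genes for the difference between the hairpins.

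With both ETV1 hairpins pooled against scrambled and the line as a block, 0 of the 10 genes were called in limma, as were 0 of all genes tested (0%), while 1204 genes had an unadjusted p under 0.05. The gap between the ETV1 hairpins counts as residual spread in this fit, so it can hardly call genes on which they differ. ETV1 itself was not called (log2 change -2.81, SE 0.938, adjusted p = 0.414). The member nearest to the threshold was ETV6 (log2 change -1.03, SE 0.391, adjusted p = 0.447). The effect of both hairpins in Colo800 minus that in A375 gave no call either (0% of all genes, 66 with an unadjusted p under 0.05). For the 10 genes that difference ran from -0.33 for ELF1 to 0.12 for ELK1, with SEs of 0.540 to 1.43. The gap between the ETV1 hairpins is the spread here too, and the SE for ETV1 was 2.06. Within a line no gene of the 10 differed 2-fold the same way with both hairpins. Over all tested genes 0.908% did so downward and 0.899% upward in Colo800, and 1.63% and 0.952% in A375. At 1.5-fold ETV6 and ELK3 did so downward in Colo800, beside 4.19% of all tested genes there (4.67% upward, with no member), and no member did so in A375, beside 4.99% downward and 4.44% upward.

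The promoter sequence of these genes was read from RefSeq (build GRCh38.p14) as windows of 250 bases before to 50 after each annotated start. A total of 9 of the 10 genes matched, with 14 windows, and ETS1 had none. The files were made on hg19, so the windows were matched by symbol and not by position. The letters CCGGAAG, a high-affinity ETS core, were searched on both strands, and so were the letters CGGAA, which are contained in them. CCGGAAG was in 2 of the 14 windows, and in 16.3% of the 13004 windows of tested genes and 10.3% of all 35116. CGGAA was in 6 of the 14 windows, and in 48.6% of windows of tested genes and 34.9% of all. None of the 14 windows held a CArG box, the serum response element bound by SRF. Of the windows of tested genes 1.12% held one, so its absence from 14 windows says little.

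Shown are windows of 30 bases on the gene's strand around the match for the genes called in a hairpin comparison that held one, ETV3, ELF1 and GABPA, and for ELK4, whose match lies nearest to the start. Capitals mark the ETS core, written TTCCG or CTTCCGG where it lies on the opposite strand.
ETV3: gaggagtgcgggCGGAAgtcggcgtctgct
ELF1: ccgggaccagcgTTCCGctgttcccaacta
GABPA: cctccgctctaCTTCCGGccctggctccgc
ELK4: cagcccctcccCCGGAAGtgacgtgtagcg
They lie at chr1:157138524-157138553 (minus strand), chr13:41061510-41061539 (minus strand), chr21:25734895-25734924 (plus strand) and chr1:205632015-205632044 (minus strand). The windows of ELK3 and ETV6, which fell with ETV1-sh2, held neither set of letters, and those of ELF1 held CGGAA in 1 of 3. Other ETS cores and sites outside these windows were not searched, and binding of ETV1 to any of these genes was not tested.

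Levels of the 10 genes were also compared between the lines, with the hairpin held fixed. Since FPKM is per length, levels of different genes can be set side by side. By the mean FPKM of 3 libraries, the order in Colo800 was ETS1 (41.8 ± 10.5, SD, n = 3 libraries), ELK1 (37.4 ± 5.23), ELF1 (35.7 ± 18.1), ELK3 (32.4 ± 19.2), ETV3 (25.2 ± 8.77), ELK4 (19.7 ± 5.14), ETV6 (17.0 ± 8.81), ELF2 (14.5 ± 3.71), ETS2 (12.6 ± 3.09) and GABPA (5.43 ± 2.35). The ranges of neighbours overlapped in 8 of 9 pairs, ETS2 and GABPA being the exception. In A375 the order was ELK1 (57.1 ± 10.3), ELK3 (40.9 ± 26.0), ETS1 (34.0 ± 20.4), ELK4 (19.3 ± 6.13), ELF1 (17.7 ± 7.55), ETV3 (16.4 ± 6.75), ELF2 (12.5 ± 2.55), ETV6 (11.2 ± 5.92), GABPA (7.90 ± 4.29) and ETS2 (6.65 ± 2.59). There all 9 pairs of neighbours overlapped. The spread holds the hairpin differences and is largest for ELK3, whose highest library was 4.01 times the lowest in Colo800 and 5.22 times in A375.

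In Colo800 4 of the 10 genes were higher and 1 was lower than in A375, beside 57.1% of all tested genes called in that comparison (31.8% higher and 25.3% lower). ELF1 was higher in Colo800 by a log2 change of 0.91 (SE 0.154, adjusted p = 0.00356), ETS2 by 0.87 (SE 0.192, adjusted p = 0.00941), ETV3 by 0.61 (SE 0.138, adjusted p = 0.0104) and ETV6 by 0.61 (SE 0.212, adjusted p = 0.0481). Each was higher in Colo800 with all 3 hairpins. ELK1 was lower in Colo800 by a log2 change of -0.59 (SE 0.184, adjusted p = 0.0330), again with all 3 hairpins. The ranges of the 2 lines did not overlap for ETS2 (10.8 to 16.2 FPKM in Colo800, 3.84 to 8.94 in A375) and for ELK1 (34.1 to 43.5 in Colo800, 48.1 to 68.3 in A375), and overlapped for the other 8 genes. GABPA was at -0.43 (adjusted p = 0.0647), ETS1 at 0.44 (adjusted p = 0.155), ELK3 at -0.22 (adjusted p = 0.366), ELF2 at 0.19 (adjusted p = 0.334) and ELK4 at 0.05 (95% interval -0.39 to 0.48).

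Scaling the libraries to a common upper quartile moved the median of all genes in this comparison to -0.10, against 0.07 as deposited, and the higher share of all calls to 43.9%, against 55.8%. Under it ETV6 missed the threshold (adjusted p = 0.131) and GABPA passed it as lower in Colo800 (log2 change -0.58, adjusted p = 0.0228). ETV6 missed the threshold under a pseudocount of 0.1 as well (0.0507) and with no variance trend (0.0536), and ETV6, ETS2 and ELK1 missed it with no filter (0.168, 0.0682 and 0.129). Without A375 scrambled ETV3 (0.0618), ETV6 (0.159) and ELK1 (0.128) missed it, as they did without Colo800 scrambled (0.0637, 0.164 and 0.127). Without A375 ETV1-sh2 ETV6 (0.164) and ELK1 (0.112) missed it, as they did without Colo800 ETV1-sh2 (0.167 and 0.110). ETS1 passed without A375 ETV1-sh1 (0.0265) or Colo800 ETV1-sh1 (0.0260). ELF1 and ETS2 kept their calls whichever library was left out.

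**Figure D4:**
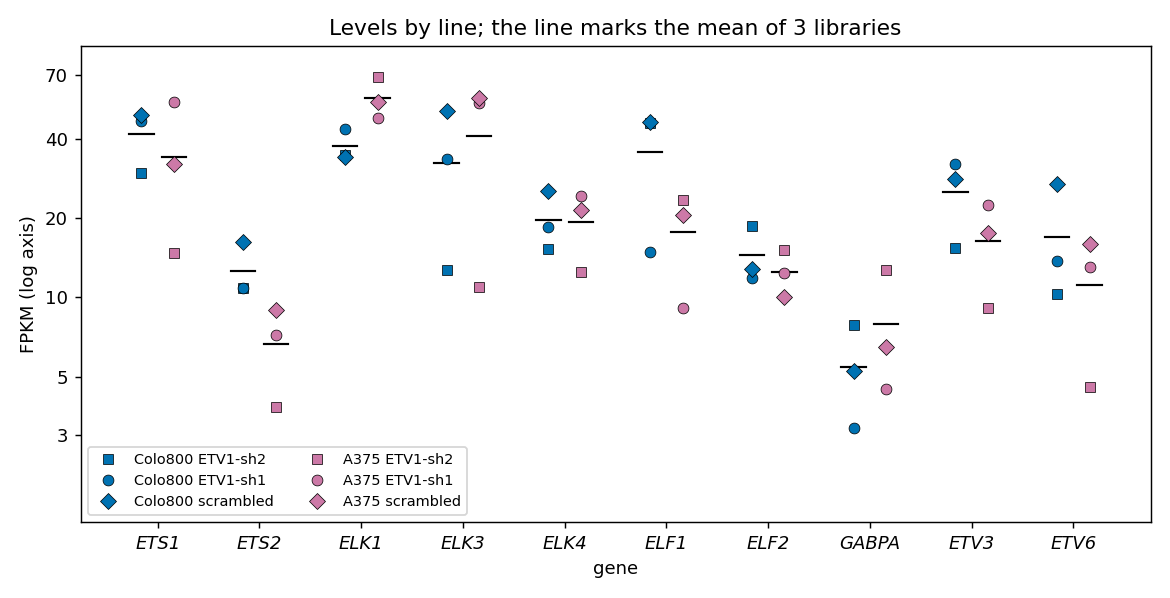
FPKM of the 10 ETS genes (y axis, log scale) in the 3 libraries of Colo800 (left of each pair) and of A375 (right), with marker shapes for the hairpins and short bars for the mean of 3 libraries. The 2 lines do not overlap for ETS2, higher in Colo800, and ELK1, lower in Colo800.

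The 10 genes were then set beside the rest of the ETS family, of which 27 of 28 listed genes were in the table. Summed over these, ETS transcripts came to 414 FPKM with ETV1-sh2, 476 with ETV1-sh1 and 772 with scrambled in Colo800, and to 309, 481 and 537 FPKM in A375. The 10 genes held 202, 229 and 295 FPKM of that in Colo800 and 175, 251 and 245 FPKM in A375 in the same order. Their sum with ETV1-sh2 was thus 68.3% of scrambled in Colo800 and 71.4% in A375, and with ETV1-sh1 77.5% and 102%. Their share of ETS FPKM was 48.7%, 48.0% and 38.2% in Colo800 and 56.6%, 52.2% and 45.7% in A375, with scrambled lowest in each line. ETV1 held 2.37%, 11.5% and 23.4% in Colo800 and 1.12%, 7.19% and 15.4% in A375. With scrambled no member stood above ETV1 in either line, while with ETV1-sh2 9 did in Colo800 and all 10 in A375, and with ETV1-sh1 0 and 3. In A375 ETV1-sh2 ELK1 was the most abundant ETS transcript, at 68.3 FPKM or 22.1% of the ETS sum. ETV1, the hairpins' own target, is part of the ETS sum. Its shares, the shares of the 10 genes and the counts of members above ETV1 therefore move with it by arithmetic. No test was made on them, and the higher share of the 10 genes is no sign that they rose. The sums are of FPKM as deposited, and the total over all genes also differed between libraries. In Colo800 that total was 647820 with ETV1-sh2, 710500 with ETV1-sh1 and 705200 with scrambled. In A375 it was 589260, 604840 and 631560 in the same order.

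**Figure D5:**
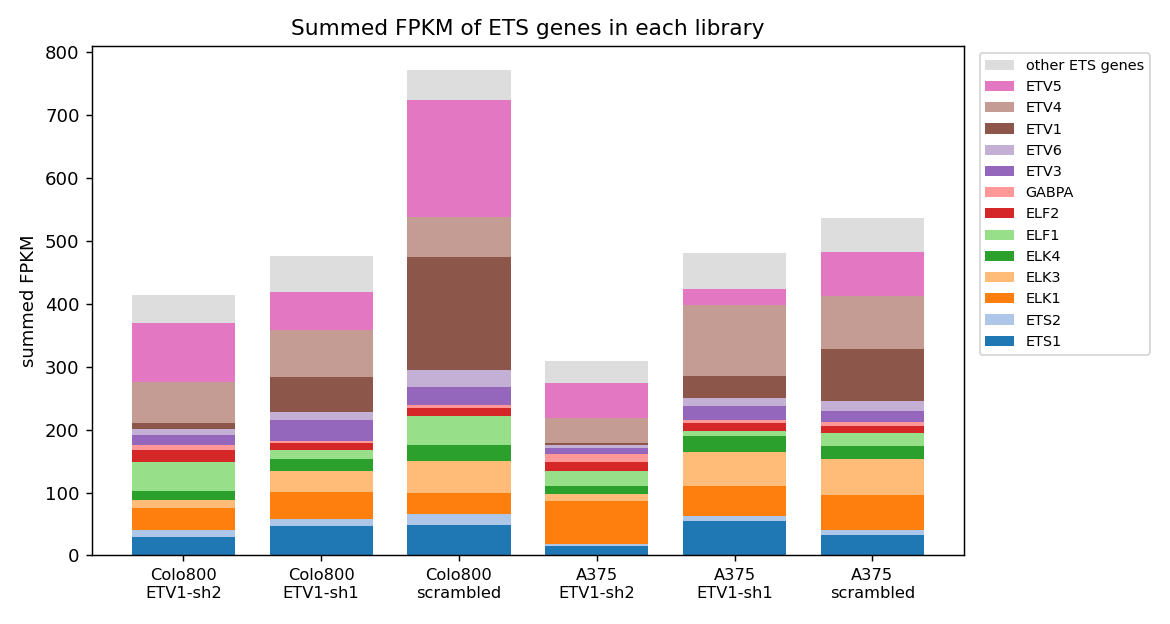
Summed FPKM of ETS genes (y axis, from 0) in each of the 6 libraries (x axis), stacked by gene. The total is 414 FPKM with ETV1-sh2 and 772 with scrambled in Colo800, and 309 and 537 FPKM in A375, and the band of ETV1 is narrowest with ETV1-sh2.

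Among the ETS genes outside the set, ETV4 and ETV5 are the other PEA3 factors. ETV5 was at 93.4, 60.7 and 186 FPKM in Colo800 and at 55.7, 24.5 and 70.3 FPKM in A375 with ETV1-sh2, ETV1-sh1 and scrambled, so that like ELF1 it was lowest with ETV1-sh1 in both lines (log2 change -1.54, adjusted p = 0.0294). ETV4 was at 64.5, 74.5 and 63.2 FPKM in Colo800 and at 40.8, 114 and 84.7 FPKM in A375, with no call for either hairpin. Of the 15 other family genes 3 were tested and none was called: ERF, a repressor (-0.61 with ETV1-sh2, adjusted p = 0.127), ELF4 (0.25, adjusted p = 0.372) and FLI1 (-0.19, adjusted p = 0.638).

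Partners and regulators of ETS factors were read from short lists of textbook members. After ETV1-sh2 2 of 15 tested regulators fell and 3 rose, beside 9% and 7.73% of all tested genes. The kinase p38 alpha (MAPK14) was at 8.76, 19.1 and 23.2 FPKM in Colo800 and at 3.27, 13.2 and 15.1 FPKM in A375 (log2 change -1.62, adjusted p = 0.0130). CAMK2D, a calcium-dependent kinase, rose by 1.10 (adjusted p = 0.0189), and CIC, the repressor of the PEA3 genes, rose by 0.88 (adjusted p = 0.0211). The change of CIC with ETV1-sh1 was of like size, 0.81 (adjusted p = 0.0692), and between the hairpins it was 0.07 (adjusted p = 0.794). ATXN1L, a partner of CIC named after its values were seen, rose by 0.69 (adjusted p = 0.0458). In the same comparison, with 16.7% of all tested genes called, none of the 11 tested ETS cofactors was called, NCOR1 being nearest (-0.58, adjusted p = 0.0584). Of SRF and its coactivators 0 of 3 were called (MKL2, 0.72, adjusted p = 0.0619), and of the beta subunits of GABP 0 of 2 (GABPB1, -0.44, adjusted p = 0.122).

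Genes known as targets of these factors were read beside the same shares of all tested genes, 16.7% called after ETV1-sh2 and 2.28% after ETV1-sh1. Of 19 serum response genes, listed as targets of ternary complex factors, 1 rose after ETV1-sh2 and none fell (median log2 change 0.14). After ETV1-sh1 1 of the 19 fell and none rose. EGR1 was at 265, 150 and 83.0 FPKM in Colo800 and at 278, 52.1 and 83.3 FPKM in A375 with ETV1-sh2, ETV1-sh1 and scrambled (log2 change with ETV1-sh2 1.69, SE 0.383, adjusted p = 0.0339). Of 15 mitochondrial genes known as GABP targets 2 fell after ETV1-sh2 (median -0.22), the import receptors TOMM20 (-0.95, adjusted p = 0.0183) and TOMM70A (-0.73, adjusted p = 0.0397). After ETV1-sh1 the 2 that fell were SDHB (-1.29) and SDHD (-1.79), subunits of succinate dehydrogenase chosen after their values were seen. Of 13 protease and vascular genes known as ETS1 or ETS2 targets 2 fell after ETV1-sh2 (median -0.59), the integrin ITGB3 (-1.83, adjusted p = 0.0113) and VEGFA (-0.85, adjusted p = 0.0448). After ETV1-sh1 none of the 13 was called, with VEGFA at -0.84 (adjusted p = 0.112) and ITGB3 at -0.84 (adjusted p = 0.136). ITGB3 was at 145, 238 and 375.1 FPKM in Colo800 and at 20.4, 50.6 and 104 FPKM in A375, in the hairpin order of ELK3.

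For 4 called members the genes with the nearest pattern were taken, by the Euclidean distance over the 4 differences of a hairpin library from scrambled. For ELK3 they were NRP2 (distance 0.206), PARD3 (0.332) and CHSY1 (0.366), and for ETV6 TANC1 (0.210), FGD4 (0.249) and ZFP36L2 (0.349). For ETV3 they were FEM1B (0.130), OSBPL9 (0.154) and KIAA1524 (0.195), and for GABPA BRPF3 (0.1501), FAM168B (0.215) and BBX (0.219). The semaphorin coreceptor NRP2 differed from scrambled by -1.87 with ETV1-sh2 and -0.74 with ETV1-sh1 in Colo800, and by -2.16 and -0.13 in A375. The differences of 1 line share its scrambled library, and the distance describes these 6 libraries.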

How the data were processed

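RNA-seq libraries of Colo800 and A375 were processed on hg19; the submitters' processing notes name STAR 2.4, Cufflinks 2.2.1 and Cuffnorm. The deposited values are FPKM. The sources used here do not give annotation, filters, strandedness, scaling method or pooling of duplicates, so overlapping, antisense and near-identical genes cannot be told apart with certainty. Depth is known only relative to A375 scrambled, from the commonest ratio of low values.

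From the FPKM, log2(FPKM + 1) was fitted with limma 3.58.1 in R 4.3.3 (eBayes with a variance trend) in the 11129 genes averaging 1 FPKM or more, and p-values were adjusted by Benjamini-Hochberg over all of them. Because 1 is added, the change of weakly expressed genes is understated. Fits were tested on data simulated with independent normal noise, as the model assumes, which does not check that assumption in these libraries. No line and hairpin has a second library. In the fits with 3 hairpin levels the p-values thus reflect how far hairpin differences vary between 2 lines. That spread may be in part technical. In the pooled fit and the fit of the difference between lines, the gap between the ETV1 hairpins counts as spread. The scrambled libraries are shared by the comparisons with ETV1-sh2 and ETV1-sh1. Alternatives were a pseudocount of 0.1, no filter, a mean FPKM of at least 5, no variance trend, upper quartile scaling, each library left out, and each hairpin alone with scrambled. The members and gene lists were chosen with earlier results of these data known. Named beyond the members were ETV1, other ETS genes tested, up to 3 called genes per list by the smallest p with ETV1-sh2 (otherwise the nearest), and 3 nearest genes in pattern for 4 members. The values of 1 called regulator are not reported here.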

Additional observations from a re-analysis of the deposited data

How the results depend on the processing

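A pseudocount of 0.1, a mean FPKM of at least 5, no variance trend and upper quartile scaling kept ELF1 as the call after ETV1-sh1 and ELK3, ETV3 and ETV6 after ETV1-sh2. With each hairpin and the scrambled libraries alone ETV3 missed the threshold (adjusted p = 0.0536). With no filter on low values the called members numbered 0 after ETV1-sh2, 0 after ETV1-sh1, 0 for ETV1-sh2 against ETV1-sh1 and 2 for Colo800 against A375. With 1 library left out they numbered 0 to 5, 0 to 1, 0 to 6 and 2 to 6 in the same comparisons. At 1.5-fold 2 members changed with both hairpins within a line, against 0 at 2-fold. With no variance trend 87 genes fell and 32 rose after ETV1-sh1 over all genes tested, against 168 and 86. The smaller fits of 1 hairpin with scrambled called 489 lower and 316 higher genes for ETV1-sh1, and 527 lower and 363 higher for ETV1-sh2 against 1002 and 860. The causes were not tested.

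Over 270 values of single members under the other settings 1 changed sign, ELK4 between lines (-0.13 with upper quartile scaling). Over 300 with a library left out 21 did, all uncalled. Those ranges were, for the pooled hairpins, -0.21 to 0.35 for GABPA and -0.68 to 0.11 for ETS1; after ETV1-sh1, -0.16 to 0.86 for ETS1, -0.26 to 0.41 for ELK1, -0.69 to 0.0241 for ELK3, -0.45 to 0.18 for ELK4 and -0.0947 to 0.27 for ELF2. After ETV1-sh2 they were -0.11 to 0.44 for ELK1 and -0.0803 to 0.25 for ELF1, for ETV1-sh2 against ETV1-sh1 -0.24 to 0.43 for ELK1, and between lines -0.43 to 0.0172 for ELK3 and -0.0693 to 0.25 for ELK4. No paired analysis was possible by replicate number because each line and hairpin has 1 library. Pairing by cell line is part of the fits, which hold the line as a term. The difference of the hairpin effect between lines could not be estimated without a scrambled library. Depth beyond the relative steps, and 1 library per line and hairpin, limit what can be told.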
